A study of Mus musculus with 9 samples.

Results

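A set of 10 transcription regulators of spermatocytes and spermatids were followed from late spermatogonia into preleptotene (PL) spermatocytes: Mybl1, Mybl2, Tcfl5, Rfx2, Rfx3, Crem, Sox30, Brdt, Tbpl1 and Foxj1. They are a list of names with no threshold on their measured values, drawn up with earlier results of these data known, and all 10 of them are among the 24505 genes of the count table and passed the filter on low counts in each of 3 comparisons. mRNA was sequenced from 9 libraries of sorted germ cells, with 3 per group: In/B spermatogonia of P17 mice (the intermediate and type B stages, the last before meiosis), and PL spermatocytes of P19 mice that were either RA-sufficient or RA-deficient. The study used these groups to ask whether entry into meiosis needs retinoic acid (RA), the vitamin A derivative that starts spermatogonial differentiation. The sorted cells came from Uchl1-eGfp mice, a C57BL/6 line outcrossed to CD-1, in which the Uchl1 promoter makes EGFP bright in spermatogonia and dim in PL spermatocytes. Spermatogenesis had been synchronized in all of them with WIN18,446, an inhibitor of RA synthesis dosed from P1 on at 100 µg per g, and with 10 µl of RA at 10 µg per µl on P11. The inhibitor was then stopped in RA-sufficient mice and continued in RA-deficient mice, which therefore had also received the P11 dose of RA. The labels of the In/B libraries do not name a regimen after P11, but the study describes its In/B spermatogonia as RA-sufficient. For cells sorted for qRT-PCR, the methods name several males per litter. For sequencing they give 2 or 3 independent preparations per RNA sample type, so a difference between libraries of a group may be partly technical.

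The regulators act in successive waves. MYBL2, a MYB protein of dividing cells, works with the MuvB complex on late cell cycle genes, and its relative MYBL1 (A-MYB) replaces it in spermatocytes, where MYBL1 and the basic helix-loop-helix factor TCFL5 switch on pachytene genes. RFX2, RFX3 and FOXJ1 drive genes of motile cilia and flagella. CREM, SOX30, the bromodomain protein BRDT and the TBP relative TBPL1 (TRF2) are needed for the expression of genes in late spermatocytes and haploid spermatids.

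The promoters of 4 regulators are shown because they belong to the regulator that fell most (Mybl2), a pair that rose in RA-sufficient PL cells (Rfx2 and Sox30) and the partner of MYBL1 (Tcfl5). Each line holds the 250 bases before the start of the gene as RefSeq gives it on GRCm38.p6, 5′ to 3′ on the strand of the gene. Capitals mark matches, on either strand, to a MYB site (AACNG), a CRE (TGACGTCA) or its core (TGACG), an RFX half-site (GTTGCC), an E2F site (GGCGGGA) or a CHR (TTTGAA).
Mybl2: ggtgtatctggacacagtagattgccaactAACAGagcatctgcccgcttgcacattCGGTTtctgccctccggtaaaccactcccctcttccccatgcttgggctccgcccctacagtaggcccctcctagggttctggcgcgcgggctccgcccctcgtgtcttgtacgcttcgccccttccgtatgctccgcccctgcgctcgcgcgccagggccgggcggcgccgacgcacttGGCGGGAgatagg
Tcfl5: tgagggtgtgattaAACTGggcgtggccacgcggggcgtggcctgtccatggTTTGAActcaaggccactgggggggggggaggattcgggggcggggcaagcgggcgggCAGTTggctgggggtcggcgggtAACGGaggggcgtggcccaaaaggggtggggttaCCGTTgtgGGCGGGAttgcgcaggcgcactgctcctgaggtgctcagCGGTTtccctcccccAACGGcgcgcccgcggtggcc
Rfx2: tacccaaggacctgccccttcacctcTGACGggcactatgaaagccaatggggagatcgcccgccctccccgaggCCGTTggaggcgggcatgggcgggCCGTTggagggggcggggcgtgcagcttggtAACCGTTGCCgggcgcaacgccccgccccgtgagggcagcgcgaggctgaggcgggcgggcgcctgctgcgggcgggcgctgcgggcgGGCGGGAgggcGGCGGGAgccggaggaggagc
Sox30: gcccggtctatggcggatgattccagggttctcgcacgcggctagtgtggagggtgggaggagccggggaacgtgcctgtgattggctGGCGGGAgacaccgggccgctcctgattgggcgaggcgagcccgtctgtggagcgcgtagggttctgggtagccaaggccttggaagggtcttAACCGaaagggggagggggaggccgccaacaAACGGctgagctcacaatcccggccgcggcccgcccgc

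These windows are chr2:163054385-163054634 (plus strand) for Mybl2, chr2:180642692-180642941 (minus strand) for Tcfl5, chr17:56831009-56831258 (minus strand) for Rfx2 and chr11:45980060-45980309 (plus strand) for Sox30. Mybl2 held 2 MYB sites and an E2F site that began 13 bases before the start. Tcfl5 held 6 MYB sites, an E2F site and a CHR. Rfx2 held 4 MYB sites, 2 E2F sites, a CRE core and an RFX half-site that overlaps a pair of the MYB matches, and Sox30 held 2 MYB sites and an E2F site. Of 32851 promoters of this length, 74.2% held AACNG, 9.75% GGCGGGA, 17.8% TGACG, 16% TTTGAA, 10.4% GTTGCC and 1.55% TGACGTCA. The MYB letters are thus common and their presence says nothing by itself about binding. Windows were taken for 7 of the 10 regulators, and the other windows, of Rfx3, Brdt and Tbpl1, held 2 MYB sites each, with a CHR besides in Brdt and Tbpl1.

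Before the results, the labels were set against known markers, in CPM (a gene's counts relative to the library total) after TMM scaling over all 9 libraries, called normalized CPM here. Totals ran from 12612959 to 27042274 counts per library. Sycp3 and Dmc1, which are expressed as meiosis begins, were higher in every PL library than in every In/B library. Rec8, an RA-induced meiotic cohesin gene, did not follow them. It was at 17.5, 98.4 and 96.1 normalized CPM in In/B and 45.3, 32.1 and 30 in RA-sufficient PL. In RA-deficient replicates 1, 2 and 3 Rec8 was at 29.4, 39.5 and 5.86. Kit, the receptor of differentiating spermatogonia, was at 327 to 404 normalized CPM in In/B and 20.2 to 41 in RA-sufficient PL, but at 561, 521 and 20.3 in RA-deficient replicates 1, 2 and 3. Dmrt1, which PL spermatocytes lose, was at 460, 485 and 111 in the same RA-deficient libraries, against 534 to 711 in In/B and 72.1 to 76.8 in RA-sufficient PL. Stra8, an RA-responsive gene, was at 377, 365 and 81.5 in RA-deficient replicates 1, 2 and 3 and at 444, 126 and 121 in RA-sufficient replicates 1, 2 and 3. Replicate 3 of the RA-deficient group therefore stood apart from replicates 1 and 2, which had Kit above and Dmrt1 not far below the In/B range, and the results of this group that turn on it are given with and without it. The summed level of 9 Sertoli cell markers was 72.6 to 368 in In/B, 3030 to 4000 in RA-sufficient PL and 343 to 579 in RA-deficient PL. Peritubular and stromal markers ran from 102 to 166, from 1010 to 1380 and from 157 to 201, and Leydig cell markers from 10.9 to 23.4, from 105 to 110 and from 18.4 to 34.6. Pachytene spermatocyte markers also differed, with 143 to 257 in In/B, 1670, 672 and 609 in RA-sufficient replicates 1, 2 and 3 and 166, 177 and 472 in RA-deficient replicates 1, 2 and 3. Round spermatid markers were low throughout, at 3.39 to 6.73, 9.13 to 10.9 and 4.98 to 5.48, as were macrophage and blood cell markers at 3.57 to 13.7 over all 9 libraries, with Hbb-b1 and Hba-a1 at 0. The part of these other cells in the results below was not tested, and fewer cells of a type and less mRNA per cell cannot be told apart in such libraries.

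In RA-sufficient PL against In/B, 5 of the 10 regulators rose and 1 fell. A gene was called when edgeR's quasi-likelihood test gave a Benjamini-Hochberg adjusted p below 0.05 over all genes tested and the change was over 2-fold. Of all 15001 genes tested, 26.1% were called higher and 19.3% lower. The groups of 3 libraries did not overlap for 6 of the 10, where 71.5% of all genes did not. The median log2 fold change of the 10 was 0.83, against 0.04 over all genes.

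The MYB pair moved in opposite directions. Mybl1 (chr1:9657496-9690290 on NCBIM37, the build of mm9, as are all gene positions here) stood at 7.10, 16.2 and 16.5 normalized CPM in the In/B libraries. It was at 166, 194 and 174 in RA-sufficient PL, so every PL library was above every In/B library. The rise was 13.9-fold (log2 fold change 3.80 ± 0.30 SE, adjusted p = 2.2e-05), the largest change among the 10. Mybl2 (chr2:162880423-162910424) went the other way, from 83.0, 90.3 and 86.4 to 12.3, 18.3 and 14.4 normalized CPM. It fell 5.54-fold (log2 fold change -2.47 ± 0.18, adjusted p = 1.74e-05), and the groups were far apart. The ratio of Mybl1 to Mybl2 counts within a library, which no scaling between libraries touches, was 0.0856, 0.18 and 0.191 in In/B and 13.5, 10.6 and 12 in RA-sufficient PL. Mybl2 was thus the more counted of the pair in every In/B library, and Mybl1 in every RA-sufficient library.

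Tcfl5 (chr2:180356661-180377413), the partner of MYBL1 in spermatocytes, was not called. Its values were 105, 104 and 92.1 normalized CPM in In/B and 108, 64.2 and 54.7 in replicates 1, 2 and 3 of RA-sufficient PL, where replicate 1 lay just above all In/B libraries and the others below them. The log2 fold change was -0.36 (95% interval -0.90 to 0.18, adjusted p = 0.214). Without RA-sufficient replicate 1 it was -0.71 (adjusted p = 0.00215), still short of 2-fold, and without RA-sufficient replicate 3 it was -0.17 (adjusted p = 0.551). Tcfl5 shares 234 bases of exon with Col9a3 on the other strand, which had 2.49 to 8.57 normalized CPM over the 9 libraries. The part of this overlap in the Tcfl5 counts was not tested.

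Among the regulators of ciliary genes, Rfx2 rose, Foxj1 rose from a low level and Rfx3 was not called. Rfx2 (chr17:56915320-56970431) was at 32.9, 37.6 and 39.2 normalized CPM in In/B and at 100, 73.7 and 78.0 in RA-sufficient PL, with no overlap. This was a 2.38-fold rise (log2 fold change 1.25 ± 0.16, adjusted p = 0.000216). Foxj1 (chr11:116192018-116196713), the master regulator of motile cilia, was at 3.47, 7.71 and 4.13 in In/B and at 7.95, 10.4 and 13.1 in RA-sufficient PL. The groups only just failed to meet, and the 2.14-fold rise (log2 fold change 1.096 ± 0.36, adjusted p = 0.0251) was lost when In/B replicate 1 or 3 or RA-sufficient replicate 2 or 3 was left out (adjusted p from 0.0626 to 0.0955) and when all 9 libraries were fitted together (adjusted p = 0.0527). Rfx3 (chr19:27836211-28085656), at 27.7, 38.8 and 35.8 in In/B and 28.0, 50.4 and 42.0 in RA-sufficient PL, overlapped (log2 fold change 0.29, 95% interval -0.24 to 0.83, adjusted p = 0.295). Leaving out RA-sufficient replicate 1 gave 0.49 for Rfx3 (adjusted p = 0.0407) and leaving out replicate 2 gave 0.09 (adjusted p = 0.767).

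Of the regulators of the haploid programme, Crem and Sox30 rose about alike, while Brdt and Tbpl1 were not called. Crem (chr18:3266046-3337746) was at 7.995, 11.5 and 10.0 normalized CPM in In/B and at 53.2, 38.0 and 48.6 in RA-sufficient PL (4.93-fold, log2 fold change 2.30 ± 0.21, adjusted p = 4.35e-05). Crem has 41 annotated transcripts, and its gene-level counts cannot separate the activator forms of spermatids from the repressor forms of earlier cells. Crem also shares 103 bases of exon with Gm6225 on the other strand. Gm6225 stood at 0.335 to 0.961, 1.77 to 4.5 and 0 to 0.594 normalized CPM in In/B, RA-sufficient PL and RA-deficient PL. The part of this overlap in the Crem counts was not tested. Sox30 (chr11:45793812-45831496) was at 11.1, 10.4 and 11.5 in In/B and at 43.9, 56.0 and 56.2 in RA-sufficient PL (4.92-fold, log2 fold change 2.30 ± 0.18, adjusted p = 2.23e-05). For Crem and Sox30 the lowest PL library lay well above the highest In/B library.

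Brdt (chr5:107760178-107816077), which binds acetylated histones in spermatocytes and spermatids, was already abundant before meiosis, at 64.7, 90.1 and 103 normalized CPM in In/B and 158, 110 and 98.7 in RA-sufficient PL. The groups overlapped, and the log2 fold change of 0.56 ± 0.22 (adjusted p = 0.0485) was below the 2-fold limit, and was 0.33 (adjusted p = 0.153) without RA-sufficient replicate 1. Tbpl1 (chr10:22423685-22451744) was at 70.2, 72.5 and 67.8 in In/B, the tightest group of its 3, and at 92.6, 59.5 and 61.0 in RA-sufficient PL. Its log2 fold change of 0.07 (95% interval -0.35 to 0.50, adjusted p = 0.749) became -0.18 without RA-sufficient replicate 1, which was also the library with the highest Sertoli and pachytene marker sums. Tbpl1 shares 407 bases of exon with Slc2a12 on the other strand, which stood at 1.06 to 1.55, 7.94 to 12.6 and 0.787 to 2.73 normalized CPM in the 3 groups, and the sources used here do not say whether strand was used in counting.

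**Figure D1:**
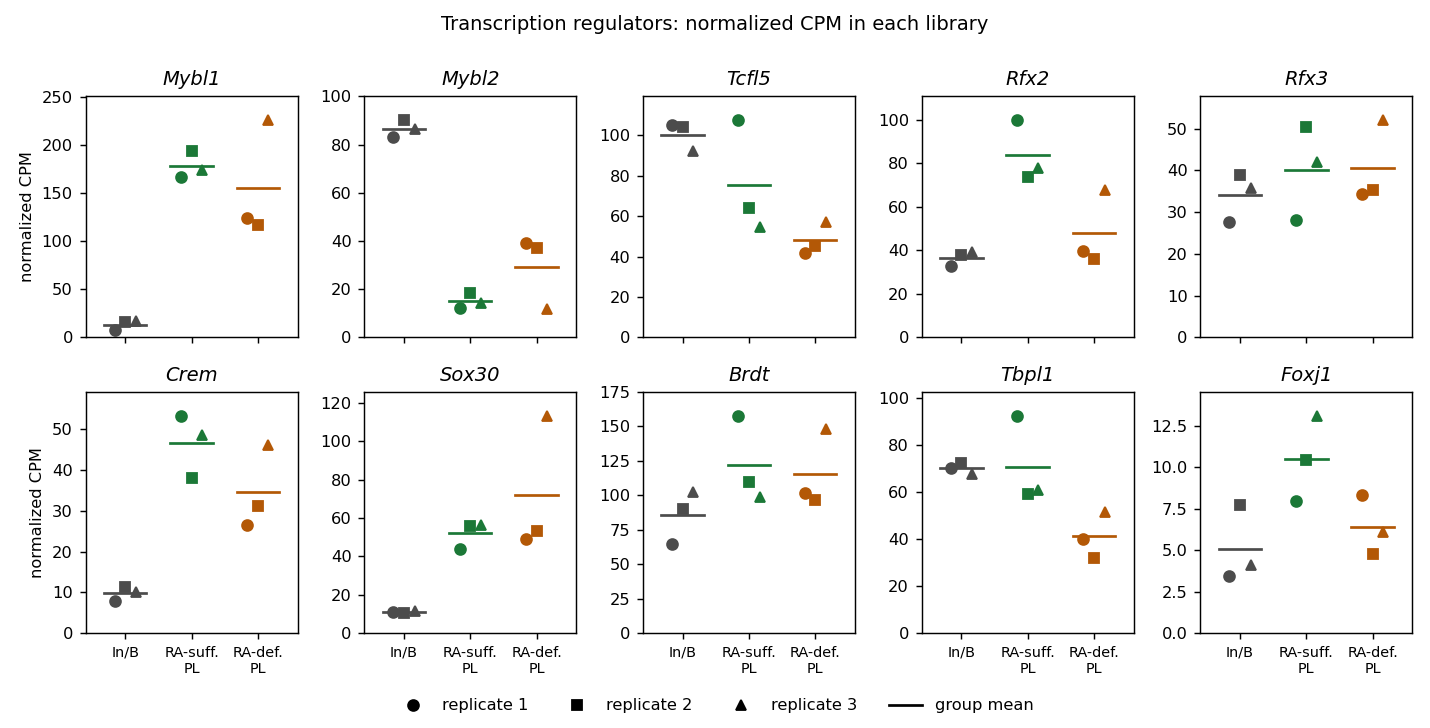
Normalized CPM (vertical axes, from 0, a separate scale for each gene) of the 10 regulators in each of 9 libraries, by group; symbols mark replicates 1 to 3 and lines the group means. Mybl1, Crem and Sox30 sit low in In/B and higher in all 6 PL libraries, Mybl2 does the reverse, and RA-deficient replicate 3 (triangle) is the highest of its group for 8 genes and the lowest for Mybl2.

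From In/B to RA-deficient PL spermatocytes, with the same 3 In/B libraries as reference, 3 regulators rose (Mybl1, Crem and Sox30) and 1 fell (Mybl2). Over all 14877 genes tested, 11.4% were called higher and 11.8% lower. Of the calls 49.1% were higher, but 28.9% with library sizes in place of TMM scaling, which moved the median of all genes by -0.316 on the log2 scale. The libraries did not overlap for 6 of the 10, and for 54.6% of all genes. Without RA-deficient replicate 3 the counts were 3 higher and 2 lower, Tcfl5 being the addition, against 11.5% and 14.5% of 15328 genes. The median log2 fold change was 0.53 with replicate 3 and 0.30 without it, against 0.00 and -0.08 over all genes.

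Mybl1 was at 124, 117 and 226 normalized CPM in RA-deficient replicates 1, 2 and 3, all far above the 7.10 to 16.5 of In/B. The rise was 13.2-fold (log2 fold change 3.72 ± 0.40, adjusted p = 0.000359), and 10.2-fold without replicate 3 (adjusted p = 0.000115). Mybl2 was at 39.0, 36.9 and 11.6, all below the 83.0 to 90.3 of In/B, but replicates 1 and 2 were above the RA-sufficient range and replicate 3 was under it. Its fall was 2.64-fold (log2 fold change -1.40 ± 0.40, adjusted p = 0.0276) and 2.03-fold without replicate 3 (adjusted p = 0.000418), and it passed no longer when any single In/B library was left out (adjusted p from 0.0734 to 0.078). The ratio of Mybl1 to Mybl2 counts was 3.17, 3.17 and 19.5 in RA-deficient replicates 1, 2 and 3. Mybl1 thus exceeded Mybl2 in every PL library, with a lower ratio than in any RA-sufficient library in replicates 1 and 2 and a higher one in replicate 3.

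Tcfl5 was lower in all RA-deficient libraries, at 41.5, 45.2 and 57.2 normalized CPM, than in any In/B library. The log2 fold change of -0.90 ± 0.17 (adjusted p = 0.00434) stayed short of 2-fold, and reached -1.04 (adjusted p = 0.000499) without replicate 3, -1.03 with all 9 libraries in a single fit and -1.22 with library sizes alone. Crem was at 26.6, 31.2 and 46.1, a 3.96-fold rise (log2 fold change 1.99 ± 0.28, adjusted p = 0.00118) that was 3.32-fold without replicate 3. Sox30 was at 49.3, 53.4 and 113, a 7.34-fold rise (log2 fold change 2.88 ± 0.35, adjusted p = 0.000613) that was 5.26-fold without replicate 3. For Crem and Sox30 no RA-deficient library reached down to the In/B range, and replicate 3 was the highest.

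The ciliary regulators were not called in this comparison. Rfx2 was at 39.6, 36.0 and 67.9 normalized CPM, so that replicates 1 and 2 were near the In/B values of 32.9 to 39.2 and replicate 3 was not (log2 fold change 0.55, 95% interval -0.05 to 1.16, adjusted p = 0.136). Without replicate 3 the log2 fold change was 0.22 (adjusted p = 0.289). Rfx3 was at 34.2, 35.3 and 52.1 (log2 fold change 0.42, adjusted p = 0.195) and Foxj1 at 8.32, 4.79 and 6.08 (0.50, 95% interval -0.53 to 1.54, adjusted p = 0.433), both overlapping In/B. Brdt was at 102, 96.7 and 148 (log2 fold change 0.60, adjusted p = 0.0729), with the groups overlapping. Tbpl1 was at 40.1, 32.1 and 51.6, below every In/B library, with a log2 fold change of -0.60 ± 0.20 (adjusted p = 0.0445) that did not reach 2-fold. Without replicate 3 the log2 fold changes were 0.20 for Rfx3 (adjusted p = 0.393), 0.54 for Foxj1 (adjusted p = 0.377), 0.38 for Brdt (adjusted p = 0.123) and -0.79 for Tbpl1 (adjusted p = 0.00352), none of them called.

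**Figure D2:**
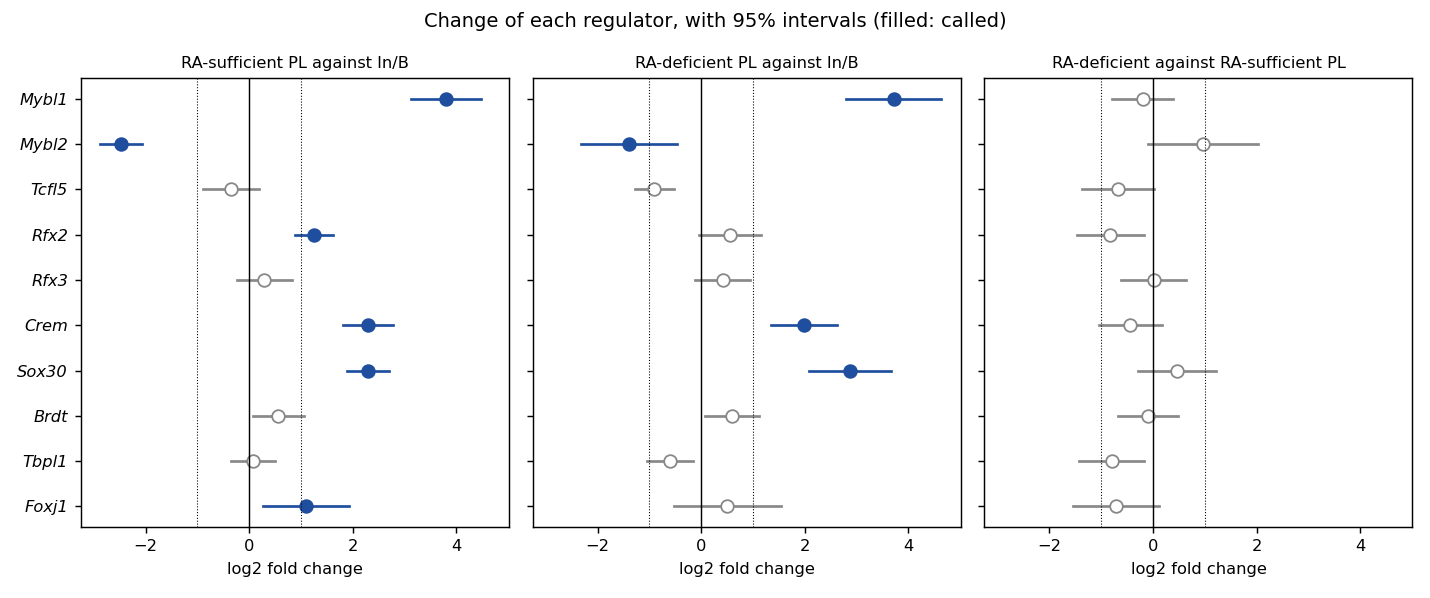
Log2 fold change of each regulator (horizontal axis) with its 95% interval from edgeR in the 3 comparisons; filled points were called and dotted lines mark a 2-fold change. The first and second panels share the In/B libraries. Mybl1 lies near 3.8 and 3.7 in them, and no interval of the third panel belongs to a called gene.

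Set directly against each other, the PL groups differed in none of the 10 regulators by the call used. With edgeR's test 0 of 10 had an adjusted p below 0.05, 2 had an unadjusted p below it (Rfx2, 0.0202, and Tbpl1, 0.0193), and DESeq2 also called 0. Of all 15352 genes 4.47% were called higher in RA-deficient PL and 11% lower. Higher genes were thus 28.8% of the calls, and 17.5% with library sizes alone, where Rfx2 was called lower (log2 fold change -1.01, adjusted p = 0.0367). The libraries did not overlap for 2 of the 10 (again Rfx2 and Tbpl1), against 47.4% of all genes. The median log2 fold change was -0.32, against -0.09 over all genes.

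The intervals show how large a difference these libraries could hide. They take the 3 libraries of a group as independent and alike, while RA-deficient replicate 3 stood apart. For Mybl1 the log2 fold change was -0.20 (95% interval -0.79 to 0.39, adjusted p = 0.601), so the interval held no 2-fold difference either way. The same holds for Rfx3 at 0.02 (-0.61 to 0.64, adjusted p = 0.973) and Brdt at -0.10 (-0.68 to 0.49, adjusted p = 0.811). For Mybl2 it was 0.96 (-0.10 to 2.02, adjusted p = 0.168), so the interval held both no difference and one of over 2-fold. Sox30 (0.47, -0.29 to 1.22), Crem (-0.44, -1.05 to 0.18), Tcfl5 (-0.67, -1.37 to 0.02) and Foxj1 (-0.71, -1.54 to 0.12) had adjusted p from 0.144 to 0.336. Rfx2 (-0.82, -1.48 to -0.17, adjusted p = 0.072) and Tbpl1 (-0.80, -1.43 to -0.17, adjusted p = 0.0698) came closest to the threshold, each lower in all 3 RA-deficient libraries than in any RA-sufficient one.

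The result turned on RA-deficient replicate 3. Without it, Mybl2 was called higher in RA-deficient PL (2.54-fold, log2 fold change 1.35 ± 0.23, adjusted p = 0.00353) and Rfx2 lower (2.21-fold, log2 fold change -1.14 ± 0.18, adjusted p = 0.00259). Over all 15799 genes then tested, 8.01% were called higher and 20.4% lower. Mybl1 (log2 fold change -0.56, adjusted p = 0.00954), Crem (-0.68, adjusted p = 0.0335) and Tbpl1 (-0.97, adjusted p = 0.0156) also passed the adjusted p, with changes under 2-fold. Sox30 stood at -0.01 (95% interval -0.41 to 0.39), so the higher mean of the RA-deficient group came from replicate 3 alone. Replicate 3 was 1.88 times the mean of the other RA-deficient libraries for Mybl1, 1.8 times for Rfx2, 1.6 times for Crem, 2.2 times for Sox30 and 0.305 times for Mybl2. It was the highest of its group for 8 of the 10 regulators and the lowest for 1, where over all 15352 genes it was the highest for 42.2% and the lowest for 38.1%.

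**Figure D3:**
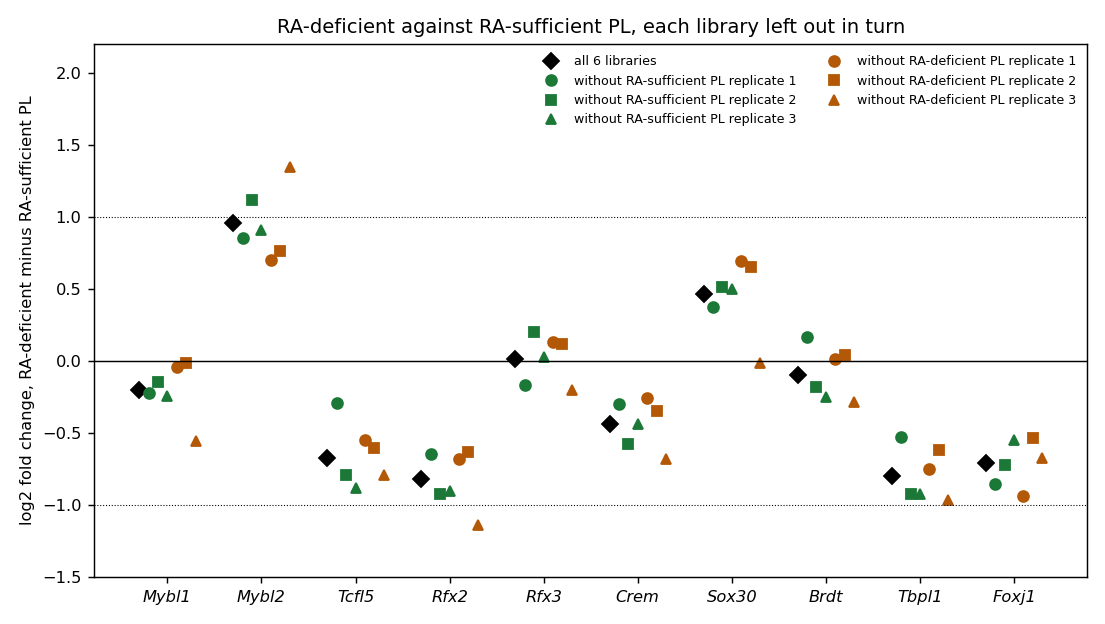
Log2 fold change of RA-deficient against RA-sufficient PL for each regulator, with all 6 libraries (diamond) and with each library left out in turn; dotted lines mark 2-fold. Leaving out RA-deficient replicate 3 (brown triangle) takes Mybl2 to 1.35 and Rfx2 to -1.14 and brings Sox30 to -0.01.

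Divided by exon length, the levels can also be ordered between genes. The length is that of all annotated exons of a gene merged. It may exceed that of the transcripts present, as for Rfx3 (11.034 kilobases, 10 transcripts) and Crem (5.937 kilobases, 41 transcripts), and so lower their place. In In/B the order was led by Tcfl5 (31.7 ± 2.3 SD normalized CPM per kilobase), Tbpl1 (21.4 ± 0.73) and Mybl2 (18.7 ± 0.789), with Brdt (16.8 ± 3.78) overlapping Mybl2 and Rfx2 below (10.9 ± 0.978). Sox30 (3.67), Rfx3 (3.09), Mybl1 (2.47), Foxj1 (1.94) and Crem (1.65) followed, each overlapping the next. In RA-sufficient PL, Mybl1 led (33.1 ± 2.64) and its libraries did not overlap those of the next gene, while Rfx2 (25 ± 4.22), Tcfl5 (23.9 ± 8.94), Brdt (23.8 ± 6.11), Tbpl1 (21.7 ± 5.72) and Sox30 (17.4 ± 2.36) each overlapped their neighbour. Crem (7.85), Foxj1 (4), Rfx3 (3.64) and Mybl2 (3.24) closed the order, and the last 3 overlapped. In RA-deficient PL, Mybl1 (28.9 ± 11.4), Sox30 (24 ± 11.9) and Brdt (22.6 ± 5.5) led and overlapped in turn, ahead of Tcfl5 (15.2), Rfx2 (14.3), Tbpl1 (12.6), Mybl2 (6.29), Crem (5.83), Rfx3 (3.67) and Foxj1 (2.44). Mybl1 thus moved from place 8 in In/B to the top in both PL groups, and Mybl2 from place 3 to place 10 or 7.

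**Figure D4:**
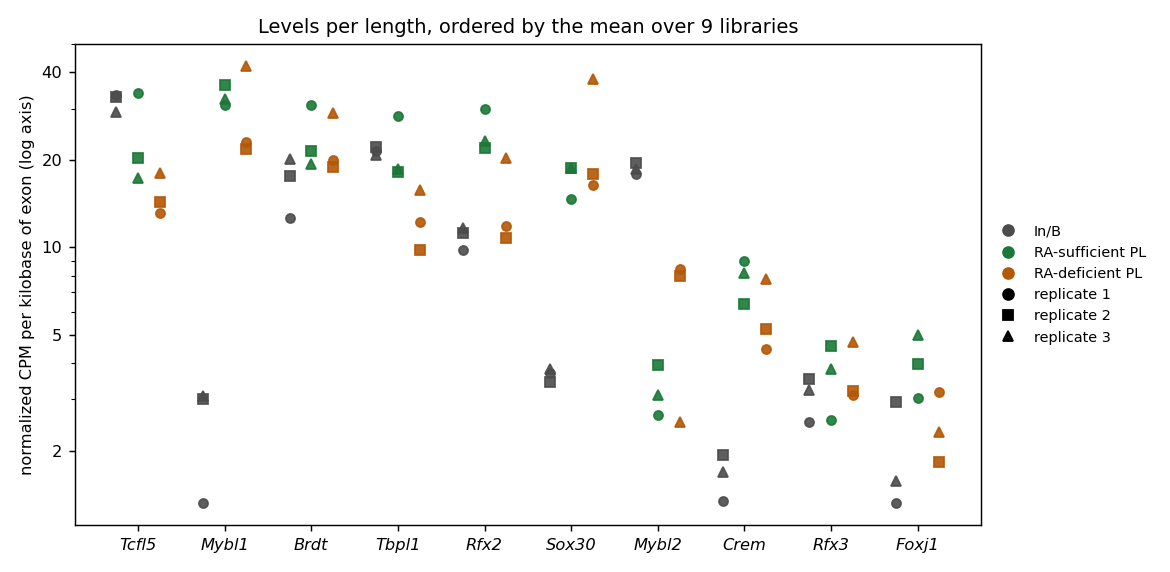
Normalized CPM per kilobase of exon (log axis) of each regulator in each library, with the genes ordered by their mean over 9 libraries and colours for the groups. Tcfl5, Brdt and Tbpl1 hold high levels in all groups, while Mybl1, Sox30 and Crem are low in In/B (2.47, 3.67 and 1.65 on average) and Mybl2 is low in RA-sufficient PL (3.24).

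Relatives and partners of the regulators gave no single direction over the 3 comparisons. With all libraries, the relatives called in the comparisons with RA-deficient PL were all higher in it. Of 16 relatives (MYB, RFX, CREB, BET, TBP and FOXJ families), 14 were tested in each comparison. From In/B to RA-sufficient PL, 2 rose and 2 fell, and the median log2 fold change was -0.50. Over all genes 26.1% rose and 19.3% fell, with a median of 0.04. From In/B to RA-deficient PL, 2 rose and none fell (median 0.22), as without replicate 3 (median 0.17). Over all genes 11.4% rose and 11.8% fell (median 0.00), and 11.5% and 14.5% without replicate 3 (median -0.08). In the direct comparison of PL cells 4 were higher in RA-deficient PL and none lower (median 0.57), and without replicate 3 it was 5 higher and 2 lower (median 0.42). Over all genes 4.47% were higher and 11% lower (median -0.09), and 8.01% and 20.4% without replicate 3 (median -0.12). The bromodomain gene Brd2 was at 596, 599 and 581 normalized CPM in RA-sufficient PL and 1450, 1420 and 1480 in RA-deficient PL (log2 fold change 1.29 ± 0.09, adjusted p = 0.00079), with replicate 3 in step with the others. Foxj3 was at 146, 166 and 159 against 337, 323 and 358 (1.11 ± 0.10, adjusted p = 0.000955). Atf1 (-1.02, adjusted p = 0.000104), a CREB relative, fell from In/B to RA-sufficient PL.

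Of 21 partner genes 18 were tested from In/B to RA-sufficient PL, of which 5 rose and 7 fell (median -0.62). The shares of all genes were 26.1% and 19.3%. Foxm1, which joins MuvB on mitotic genes after MYBL2, fell from 416, 450 and 451 to 126, 143 and 133 normalized CPM (log2 fold change -1.66 ± 0.11, adjusted p = 1.2e-05), and Gtf2a1, a TFIIA subunit, fell by 1.23 on the log2 scale (adjusted p = 0.00011). In RA-deficient PL against In/B, 5 of 19 rose and 1 fell (median 0.12), and without replicate 3 it was 5 and 3 (median -0.30). All genes gave 11.4% and 11.8%, and 11.5% and 14.5% without replicate 3. With the PL groups compared, 1 of 18 partners was called, lower in RA-deficient PL (median 0.49), and without replicate 3 it was 3 higher and 2 lower (median 0.30). Of all genes 4.47% were higher and 11% lower, and 8.01% and 20.4% without replicate 3. The gene called with all libraries was Rbl2, the pocket protein of the DREAM complex, at 47.3, 32.9 and 30.3 normalized CPM in RA-sufficient PL and 5.72, 3.29 and 8.70 in RA-deficient PL (log2 fold change -2.66 ± 0.41, adjusted p = 0.00559), where In/B had 4.31 to 8.53. The testis TFIID subunit Taf7l was next, at 718, 806 and 896 against 1310, 1280 and 1120 (0.61 ± 0.11, adjusted p = 0.00962), short of 2-fold.

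Lists of genes of the kind the regulators are known to activate were counted in the same way. Of 15 mitotic genes, the class served by MYBL2 and MuvB, 9 fell and 1 rose from In/B to RA-sufficient PL (median log2 fold change -1.25), and 9 fell and 3 rose in RA-deficient PL (median -1.48), as without replicate 3 (median -1.61). Of all genes 19.3% fell and 26.1% rose in RA-sufficient PL, and 11.8% fell and 11.4% rose in RA-deficient PL. Without replicate 3, 14.5% of all genes fell and 11.5% rose in RA-deficient PL. Aurkb fell from 116, 113 and 108 to 7.80, 14.6 and 9.53 normalized CPM in RA-sufficient PL (-3.34 ± 0.24, adjusted p = 1.61e-05) and stood at 7.08, 3.17 and 8.09 in RA-deficient PL. Plk1 fell by 2.16 on the log2 scale (adjusted p = 3.21e-05). Of the 15 mitotic genes 1 was higher and 2 lower in RA-deficient PL with the PL groups compared, and 1 and 3 without replicate 3. All genes gave 4.47% higher and 11% lower, and 8.01% and 20.4% without replicate 3. Ube2c, a ubiquitin-conjugating enzyme of mitosis, was at 9.71, 15.2 and 14 against 33.1, 28.7 and 28.7 (1.22 ± 0.24, adjusted p = 0.0131), and Aurka, a spindle kinase, at 70.9, 55.4 and 46.4 against 17.4, 25.1 and 26.1 (-1.34 ± 0.26, adjusted p = 0.0121).

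Of 16 spermatocyte genes of the MYBL1 and TCFL5 class, 8 rose and 1 fell from In/B to RA-sufficient PL (median 1.56). The shares of all genes were 26.1% and 19.3%. Hspa2, the spermatocyte heat shock protein, rose from 57.6, 73 and 63.6 to 408, 237 and 245 normalized CPM (2.25 ± 0.22, adjusted p = 5.77e-05), and the piRNA helicase gene Tdrd9 fell (-1.47 ± 0.13, adjusted p = 3.42e-05). In RA-deficient PL against In/B, 3 rose and none fell (median 0.14), but without replicate 3 only 2 rose and 6 fell (median -0.51). All genes gave 11.4% and 11.8%, and 11.5% and 14.5% without replicate 3. Between the PL groups 2 of the 16 were higher and 1 lower in RA-deficient PL (median -0.53), where 4.47% and 11% of all genes were. Without replicate 3 these were 2 and 8, against 8.01% and 20.4% of all genes. The 2 higher with all libraries were the piRNA genes Tdrd9 (1.47 ± 0.26, adjusted p = 0.00918) and Mov10l1, at 221, 259 and 263 against 553, 549 and 516 normalized CPM (1.12 ± 0.10, adjusted p = 0.00093).

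Genes of the motile axoneme, the class of RFX2, RFX3 and FOXJ1, showed the widest contrast among the lists. Of 38 tested, 31 rose and none fell from In/B to RA-sufficient PL, with a median log2 fold change of 2.94. Of all genes 26.1% rose and 19.3% fell there, with a median of 0.04. Tekt4, a tektin, rose from 0.28, 0.151 and 0.283 to 17.1, 17.8 and 14.2 normalized CPM (6.17 ± 0.37, adjusted p = 1.1e-05). In RA-deficient PL against In/B, 5 of 36 rose and none fell (median 0.63), and without replicate 3 it was 3 of 37 that rose and 9 that fell (median -0.27). All genes gave 11.4% and 11.8%, and 11.5% and 14.5% without replicate 3. Between the PL groups 6 of 39 were lower in RA-deficient PL (median -2.18), and without replicate 3 this became 31 of 39 (median -2.99). Of all genes 11% were lower, and 20.4% without replicate 3. Tekt4 in RA-deficient PL was at 0, 0 and 6.25, so that replicate 3 stood nearer the RA-sufficient libraries than the others did. Tekt1 was at 44.6, 24.7 and 22.5 against 2.36, 0.475 and 3.41 (-3.90 ± 0.71, adjusted p = 0.00955) and Spag16, of the axoneme's central pair, at 29.8, 10 and 10.5 against 3.76, 2.62 and 2.84 (-2.47 ± 0.54, adjusted p = 0.0179), low in all 3 RA-deficient libraries. The markers listed for ciliated epithelium were Pax8, Pax2, Krt8, Krt18, Epcam and Mcidas. Their sum was 156 to 212 in In/B, 78 to 89.1 in RA-sufficient PL and 359, 330 and 119 in RA-deficient replicates 1, 2 and 3. Mcidas made up little of it, with means of 0.256, 0.655 and 5.09 in In/B, RA-sufficient PL and RA-deficient PL. Whether the sum follows ciliated epithelium was not tested. Sertoli and pachytene markers were, as given above, highest in RA-sufficient PL.

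Spermatid genes, the class of CREM, SOX30, TBPL1 and BRDT, were low in many libraries. Of 30, 13 were tested from In/B to RA-sufficient PL, and 8 rose and 1 fell (median 1.81). The shares of all genes were 26.1% and 19.3%. Acr, the acrosin gene, went from 0.727, 2.27 and 2.88 to 42, 21.5 and 16.9 normalized CPM (3.82 ± 0.53, adjusted p = 0.000321, but 0.0504 with all 9 libraries in a single fit) and Actl7b from 0.559, 0.794 and 0.17 to 13.8, 12.2 and 11.4 (4.62 ± 0.47, adjusted p = 6.66e-05). In RA-deficient PL none of 12 rose and 1 fell (median 0.41), with Acr at 0.84, 0 and 16.8 and Actl7b at 0, 0 and 2.19. Of all genes 11.4% rose and 11.8% fell there. Between the PL groups 4 of 18 were lower in RA-deficient PL and none higher (median -0.88), and without replicate 3 it was 12 of 20. Of all genes 11% were lower and 4.47% higher, and 20.4% and 8.01% without replicate 3. Klhl10 was at 1.99, 3.64 and 2.87 against 0, 0 and 0.262 normalized CPM (log2 fold change -4.96 ± 1.45, adjusted p = 0.0455), and it had 3.05 to 4.16 in In/B.

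**Figure D5:**
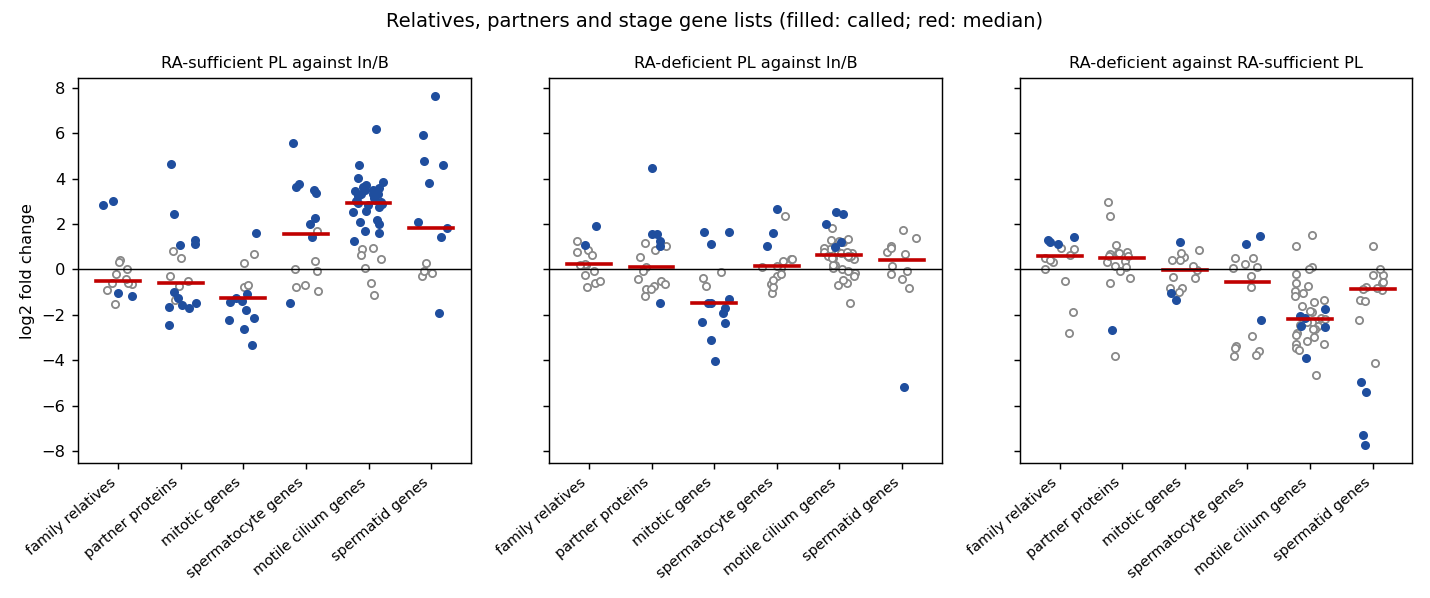
Log2 fold change of every tested gene of 6 lists (points) with the list's median (red line) in the 3 comparisons; filled points were called. The motile cilium genes lie at a median of 2.94 in RA-sufficient PL against In/B, 0.63 in RA-deficient PL against In/B and -2.18 between the PL groups. Fitted values of genes with a group near 0 depend on the fit's prior count.

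For each regulator the genes with the most similar course over the 9 libraries were found by Pearson's r of log2(normalized CPM + 1), among the other genes with a mean of at least 10 normalized CPM (9698 for Foxj1, whose own mean is lower, and 9697 for the rest). With only 3 groups, and libraries shared by all genes, such values are a description. Mybl1 was closest to Zfp654, Pbx3 and Spryd7 (0.998 to 0.996), Mybl2 to Gas5, Exo1 and Fbxl6 (0.996 to 0.995) and Sox30 had Stk17b and Urb2 among its closest (0.998 and 0.995). Rfx2 was closest to Lrriq3, Mroh8 and Mesdc2 (0.992 to 0.99) and Crem to Ero1lb, Fgf11 and Stk33 (0.991 to 0.99). Tbpl1 was closest to Ahi1, Mns1 and Flywch1 (0.984 to 0.971) and Tcfl5 to Calm2, Mad2l2 and Sephs2 (0.979 to 0.977). The course of Rfx3, Brdt and Foxj1 was less sharply matched, with Dzip3, Ppp2r5c and Lman2l as their nearest genes (0.947, 0.946 and 0.919).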

How the data were processed

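The deposited file is the authors' table of raw counts for 24505 genes in 9 libraries. They made stranded poly(A) libraries, trimmed the reads (cutadapt 1.9), mapped them to mm9 (STAR 2.5.2b) and counted them on genes with featureCounts. The gene annotation and the strand setting of the counting are not given in the sources used here. Gene positions and exon lengths are those of GENCODE M1 on NCBIM37.

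Groups of 3 libraries were compared pairwise in edgeR 4.0.16 (R 4.3.3), with TMM scaling, filterByExpr, the quasi-likelihood test and Benjamini-Hochberg adjustment over all genes tested. A call needed both an adjusted p below 0.05 and a change of over 1 on the log2 scale. The authors' stated tool, DESeq2 (1.42.0 here), other scalings, filters and thresholds, a single fit of all 9 libraries, the replicate number as a block and each library left out in turn were alternatives. The groups come from the sample titles. The members and lists were chosen with earlier results of these data known, so their counts are descriptions. Of each list, the genes named have the lowest p between the PL groups (the first 2) or in RA-sufficient PL against In/B (the first 2), among those with a mean of at least 1 normalized CPM. A few genes under these rules are not reported here by name, and the counts include them. The number of a group's libraries, 3, limits the precision more than the depth does, and errors are over libraries. No pair of libraries agreed within sampling noise, but each group held a closer pair by Pearson's r of log2 values. In/B replicates 2 and 3 had 0.994 (others 0.962 and 0.963) and RA-sufficient replicates 2 and 3 had 0.990 (0.956 and 0.946). RA-deficient replicates 1 and 2 had 0.984 (0.903 and 0.904). Whether such pairs share a cell preparation was not tested, and if they do, the errors are too small. The script for the tests was tested on simulated data with known changes. Figures were drawn with matplotlib 3.10.9.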

Additional observations from a re-analysis of the deposited data

Results flagged for a closer look

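Genes of the relatives, partners and stage lists were picked out for a closer look where the change from In/B spermatogonia to PL spermatocytes differed between RA-sufficient and RA-deficient mice by edgeR's quasi-likelihood test of the PL groups against each other. None of the 10 regulators was among them. As log2 fold changes of RA-deficient against RA-sufficient PL, the relatives Brd2 (1.28) and Foxj3 (1.11), the piRNA genes Mov10l1 (1.12) and Tdrd9 (1.47) and the mitotic gene Ube2c (1.22) were higher. The partner Rbl2 (-2.66), the mitotic kinase gene Aurka (-1.34), the axonemal genes Tekt1 (-3.90) and Spag16 (-2.47) and the spermatid gene Klhl10 (-4.96) were lower. For all 10, RA-deficient replicate 3 lay on the same side of the RA-sufficient libraries as replicates 1 and 2. The choice favours this, since the test that picked these genes included replicate 3. The Klhl10 call rests on few counts (0, 0 and 0.262 normalized CPM in the RA-deficient libraries) and was lost with 6 of the alternatives. With library size only, Foxj3 (0.93) and Mov10l1 (0.94) were under 2-fold, and Ube2c without RA-sufficient replicate 3 (adjusted p = 0.054) and Spag16 without RA-deficient replicate 2 (adjusted p = 0.0525) no longer passed.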

How the results depend on the processing

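The 10 regulators kept their direction and their side of the threshold in 124 of 130 values from RA-sufficient PL against In/B, 124 of 130 from RA-deficient PL against In/B and 120 of 130 between the PL groups. With library size only, the median over all genes moved by -0.316 (log2) in the comparison of RA-deficient PL with In/B and by -0.183 between the PL groups, and 1 regulator, Rfx2 (-1.01, adjusted p = 0.0367), was called between the PL groups against 0 as reported. Leaving out single libraries gave 0 to 2 called regulators there, and from 1190 to 4484 called genes against 2383 as reported. The counts of called genes also moved with adjusted p only (5459 in RA-deficient PL against In/B, and 3629 between the PL groups) and with a test against a fold change of 2 (1207 and 741). The sign turned for Tbpl1 in RA-sufficient PL against In/B when RA-sufficient replicate 1 was left out (range of single-library omissions -0.175 to 0.181). Between the PL groups it turned for Rfx3 with library size only (-0.172) and without RA-sufficient replicate 1 or RA-deficient replicate 3, for Sox30 without RA-deficient replicate 3, and for Brdt without RA-sufficient replicate 1 or RA-deficient replicate 1 or 2. The omissions gave -0.202 to 0.201 for Rfx3, -0.012 to 0.69 for Sox30 and -0.288 to 0.166 for Brdt, none of them called. The cause was not tested.

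Deviations of same-numbered libraries from their group means correlated at -0.278 to 0.20, and those of differently numbered libraries at -0.227 to 0.253. This gave no sign that the replicate numbers pair the samples, but with 3 libraries per group it cannot exclude a pairing. With the replicate number as a block, the called regulators were 6, 4 and 0 in the 3 comparisons, as without it, and the called genes 6373, 3208 and 1765. Klhl10 (adjusted p = 0.0741) was lost with the block.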
